A study of Mus musculus with 20 samples.

Results

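The Anp32 and Hmgb genes encode abundant nuclear proteins, and the results below describe N6-methyladenosine (m6A) in their transcripts in mouse thymocytes with and without Mettl3. The peaks were taken from the authors' deposited tables, 1 per cell type, by gene symbol (Anp32a, Anp32b, Anp32e, Hmgb1, Hmgb2 and Nans). This gave 21 of 25992 peaks, 11 in invariant natural killer T (iNKT) cells and 10 in CD4 and CD8 double-positive (DP) thymocytes. Nans was included because it lies next to Anp32b and its name was given to an Anp32b peak in iNKT cells. Of the 6 iNKT peaks named Nans, 1 lies within the RefSeq span of Anp32b and was counted as Anp32b. The other 5 lie in Nans or Trim14, and 1 of 2 iNKT peaks named Hmgb2 lies in the neighbouring pseudogene Gm6012. The 15 peaks within the 5 genes, 5 in iNKT cells and 10 in DP cells, are the members described here. The genes were chosen with their iNKT changes in view, so the iNKT changes are given as a description and not as a test.

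The groups were Mettl3fl/flCD4-cre cells, in which floxed Mettl3 is removed by a Cre recombinase under Cd4 control, and WT cells, all from mice labelled C57BL/6 and aged 6 to 8 weeks. The Cre acts from the stage at which Cd4 is expressed, so both sorted populations come from cells in which it could act. The iNKT cells (7AAD-CD1d-Tet+TCRbeta+) had 3 m6A and 3 input libraries per genotype, and the DP cells (7AAD-CD1d-Tet-CD4+CD8+) had 2 and 2. The labels do not say whether replicates came from separate animals. The deposited tables give 1 value per peak over all libraries of a cell type, so values per library, their spread and their depth are unknown here. The labels name m6A-seq and a low-input m6A-LACE-seq without assigning them to a cell type, so protocol and cell type cannot be told apart when iNKT and DP values are set side by side.

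m6A is placed on messenger RNA by a complex whose catalytic subunit is METTL3, most often late in the coding sequence, near the stop codon and in the 3' untranslated region (UTR). It is bound by reader proteins that affect splicing, export, translation and decay. ANP32 proteins have a leucine-rich repeat domain followed by a long acidic tail and act as histone chaperones. HMGB proteins carry HMG boxes that bind and bend DNA, and HMGB1 and HMGB2 assist the RAG recombinase, which DP thymocytes use to rearrange antigen receptor genes.

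As a check of the sorted populations, 6 of 8 iNKT marker genes had a peak within the gene in the iNKT table (Zbtb16, Tbx21, Gata3, Il2rb, Klrb1c and Cd44) and 2 of 8 in the DP table. DP markers had peaks for 3 of 8 genes in the iNKT table (Cd8a, Cd8b1 and Rag1) and 4 of 8 in the DP table, with Cd4 besides. Among markers of other cells, none of 4 macrophage and dendritic cell genes and none of 4 thymic epithelial genes had a peak in either table. A peak shows that a transcript was present and enriched, not how much of it there was. Mettl3 expression was not analysed here.

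The sign of the fold change is not stated in the authors' deposited table. A negative log2 fold change was taken as likely lower methylation in Mettl3fl/flCD4-cre cells. Of 5343 genes with a negative iNKT peak, 5339 are on the authors' gene list for iNKT cells, and of 1326 genes with positive iNKT peaks only, 0 are. For DP cells 4336 of 4337 and 0 of 2237 are listed. Lower and higher below carry this likely direction, and with the sign turned each would change places. A peak passed at a false discovery rate (FDR) under 0.05 in the authors' deposited table.

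Strong m6A peaks annotated as 3' UTR in Anp32a, Anp32b, Anp32e and Hmgb2 were lower by 18.1-fold to 61.8-fold in Mettl3fl/flCD4-cre iNKT cells than in WT iNKT cells. For the DP peaks that overlap them, the authors' deposited table gives ratios of Mettl3fl/flCD4-cre to WT of 1.02 to 1.10, and none passed. Hmgb1 had 4 peaks in DP cells and none in iNKT cells. In all, 4 of 5 member peaks passed as lower in iNKT cells, where 19.8% of all peaks did, and 0 as higher, where 5.84% did. In DP cells 0 of 10 passed as lower, where 0.743% of all peaks did, and 0 as higher, where 0.483% did. Because the genes were chosen on the iNKT comparison, nothing is read from the iNKT count, and with so few DP peaks passing, a count of 0 among 10 is near the background.

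**Figure D1:**
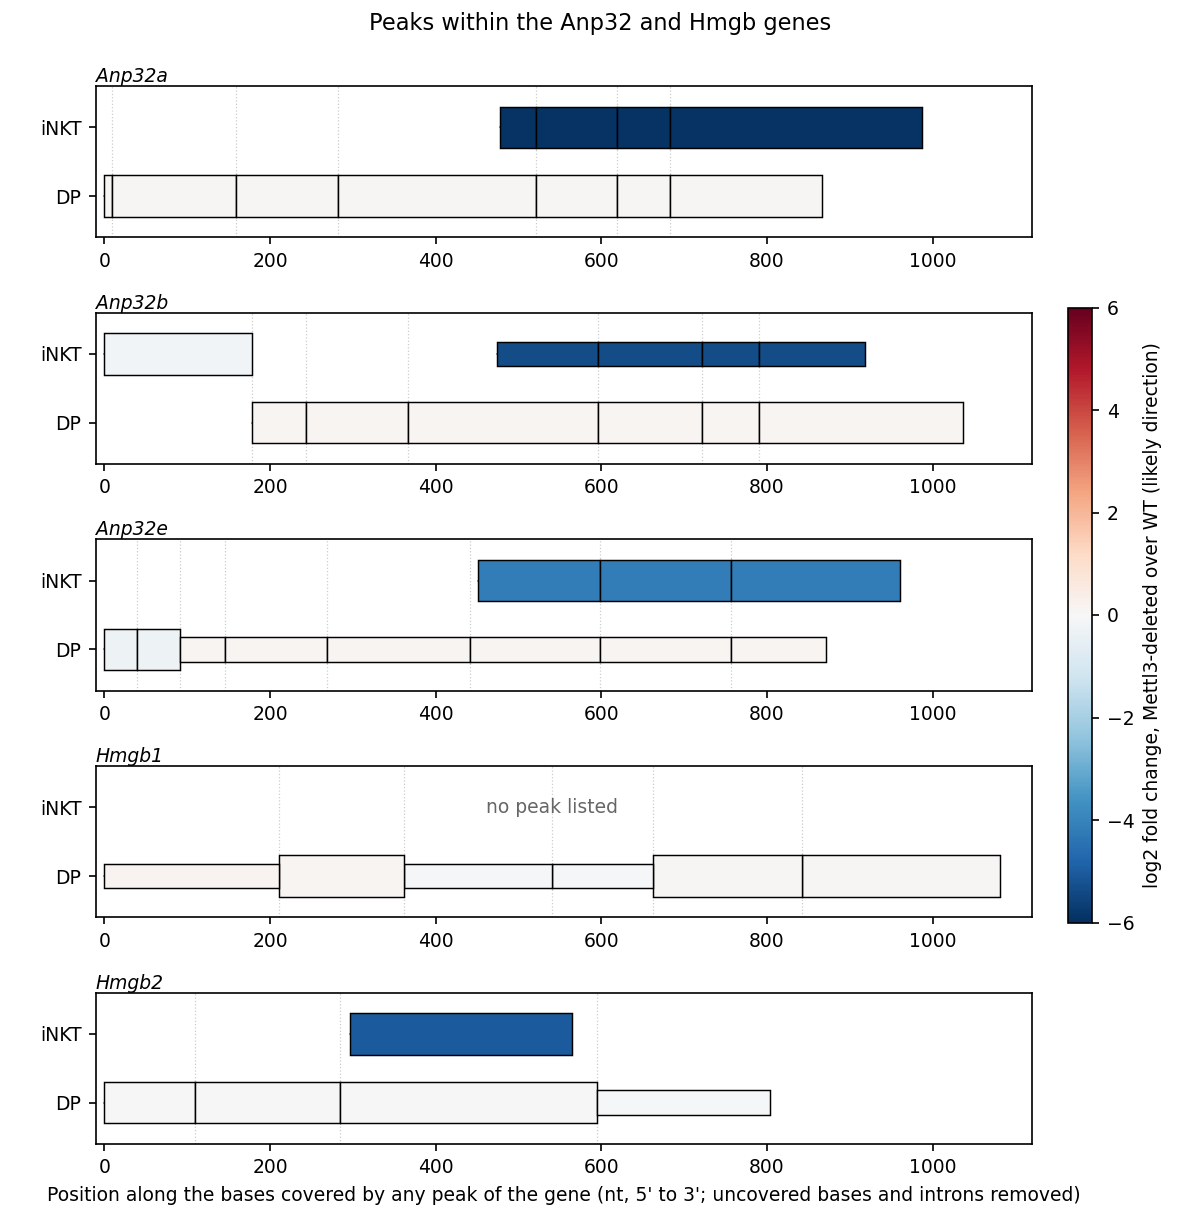
Peaks of each gene in iNKT and DP cells, drawn along the bases covered by any peak of that gene (nt, 5' to 3'), with introns and uncovered bases removed. Each box is 1 exonic block, adjacent peaks of a row alternate in height, and colour gives the log2 fold change of Mettl3fl/flCD4-cre over WT cells in its likely direction. The deep blue boxes are the lower iNKT peaks of Anp32a (-5.95), Anp32b (-5.35), Anp32e (-4.18) and Hmgb2 (-5.05), and the DP boxes are close to white.

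Anp32a encodes an inhibitor of protein phosphatase 2A that also belongs, with SET, to a complex that masks histones from acetylation. Its only iNKT peak covered 509 nt in 4 exonic blocks near the 3' end of the gene (mm10, chromosome 9, 62373635 to 62377857, plus strand, annotated as 3' UTR by the authors). The peak ended 947 bases before the RefSeq end of the gene. Immunoprecipitate over input was 28.6-fold, above 80.3% of iNKT peaks, and by its peak p it ranked 14th of 12542. The authors' deposited table gives a log2 fold change of -5.95, which is 61.8-fold lower in Mettl3fl/flCD4-cre cells, and 171 of the 12542 iNKT peaks had a more negative value. It is 1 of 21 peaks at the lowest FDR that the authors' deposited table holds for iNKT cells (log10 FDR of -434).

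In DP cells the only Anp32a peak spread over 867 nt in 7 blocks (chromosome 9, 62367335 to 62377737). It contained 76.4% of the bases of the iNKT peak and all 3 of its splice junctions. The DP peak had 6 junctions and began further upstream, while the iNKT peak reached 120 nt further towards the 3' end. Its enrichment was 6.65-fold, above 65.3% of DP peaks. Between genotypes the authors' deposited table gives 0.091 (log2), a ratio of 1.07, which did not pass (FDR 0.474, unadjusted p 0.0851).

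Anp32b encodes a histone chaperone closely related to ANP32A that, like it, binds the RNA-binding protein HuR. It was the only gene of the 5 with both an early and a late peak in iNKT cells. The late peak, named Nans by the authors' annotation, covered 444 nt in 4 blocks (chromosome 4, 46468666 to 46472213, plus strand, annotated as 3' UTR) and ended 444 bases before the RefSeq end of Anp32b. Enrichment over input was 9.4-fold, close to the iNKT median of 8.32, although the peak p ranked 18th of 12542. Here the authors' deposited table gives a log2 fold change of -5.35, 40.8-fold lower in Mettl3fl/flCD4-cre cells, at the lowest FDR of the table.

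The early Anp32b peak was a block of 178 nt in the 5' UTR, starting 65 bases into the gene (chromosome 4, 46450991 to 46451168). Its enrichment was 6.27-fold and its peak p ranked 5629th. With -0.20 (log2) in the authors' deposited table, this peak did not pass (FDR 0.76, unadjusted p 0.493). The early and late peaks of this transcript thus differed by more than 5 on the log2 scale in the size of their change, and the difference between them was not tested. The early peak lies 15 bases past the 300-base window around the RefSeq start of Anp32b. No member peak overlapped such a window of its gene.

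The DP peak of Anp32b was the strongest of all 13450 DP peaks by peak p. It covered 859 nt in 6 blocks (chromosome 4, 46460174 to 46472332) and contained the whole late iNKT peak with its 3 junctions. Enrichment was 13.3-fold, above 86.8% of DP peaks. In the authors' deposited table its log2 fold change was 0.134, a ratio of 1.10 (FDR 0.0851, unadjusted p 0.00162). This was the smallest FDR among the DP members. It did not pass at 0.05 and would pass, as higher, at 0.1.

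Anp32e encodes a chaperone that removes the histone variant H2A.Z from nucleosomes. Its iNKT peak covered 510 nt in 3 blocks (chromosome 3, 95937892 to 95945383, plus strand, annotated as 3' UTR) and ended 2004 bases before the RefSeq end of the gene. Enrichment was 14.9-fold, above 67.1% of iNKT peaks, and the peak p ranked 376th, the weakest of the 4 passing members. In the authors' deposited table its log2 fold change was -4.18, 18.1-fold lower in Mettl3fl/flCD4-cre cells (log10 FDR of -129), the smallest change among those 4.

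DP cells had 2 Anp32e peaks. The late one covered 780 nt in 6 blocks (chromosome 3, 95934004 to 95945293), held 82.4% of the iNKT peak and both of its junctions, and was enriched 5.05-fold. It did not pass, with 0.109 (log2) and a ratio of 1.08 (FDR 0.274, unadjusted p 0.01995), per the authors' deposited table. The early one covered 91 nt over a junction in the 5' UTR (chromosome 3, 95930580 to 95932851) with an enrichment of 1.96-fold. Its log2 fold change of -0.28 was the most negative among the DP members in the authors' deposited table (FDR 0.64).

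Hmgb2 encodes an HMG-box protein that is abundant in thymus and in dividing cells and is a component of the SET complex. Its iNKT peak was a single block of 268 nt (chromosome 8, 57513978 to 57514245, plus strand, annotated as 3' UTR), 1754 bases before the RefSeq end of the gene. It had the highest enrichment of the members, 66.0-fold, above 93.7% of iNKT peaks, and its peak p ranked 23rd of 12542. By the authors' deposited table the log2 fold change was -5.05, 33.1-fold lower in Mettl3fl/flCD4-cre cells. The table gives this peak a log10 FDR of -434 beside a log10 p of -338, an order that adjusted values cannot have and that occurs in 3 iNKT peaks, so only the log2 fold change and the pass are used.

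The overlapping DP peak of Hmgb2 covered 595 nt in 3 blocks (chromosome 8, 57513100 to 57514275) and contained the whole iNKT peak in its last block. It was enriched 5.34-fold, and its log2 fold change was 0.031 in the authors' deposited table (FDR 0.64). A second DP peak lay further downstream, in a block of 209 nt (chromosome 8, 57514870 to 57515078). It had the highest enrichment of the DP members, 14.5-fold, but a peak p that ranked 9965th of 13450. Its log2 fold change was -0.0875 in the authors' deposited table (FDR 0.748). No iNKT peak overlapped it.

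Hmgb1 encodes the HMG-box protein that also serves as an alarm signal outside the cell, where it is bound by RAGE and Toll-like receptors. It had 4 peaks in DP cells, more than any other member, and no iNKT peak within the gene under any name. The DP peaks followed each other along the transcript on the minus strand of chromosome 5. The last one, a 419 nt peak over a junction annotated as 3' UTR (149048675 to 149049332), was enriched 8.48-fold and ranked 5th of 13450 by peak p. The 3 upstream peaks were barely enriched. The one annotated as 5' UTR (149050634 to 149050844) had 1.62-fold, the middle one (149050395 to 149050545) had 1.19-fold, with 2 DP peaks listed lower, and the one after it (149049781 to 149050246) had 1.44-fold.

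None of the Hmgb1 peaks passed between genotypes. From the 5' to the 3' end of the transcript their log2 fold changes were 0.174, 0.112, -0.0562 and 0.0664 in the authors' deposited table, with FDRs of 0.467, 0.597, 0.637 and 0.448. The 3' UTR peak thus had a ratio of 1.05. For iNKT cells no fold change can be given for Hmgb1. A gene without a listed peak may lack enrichment or may lack the reads to show it, which was not tested.

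Hmgb1 has many processed copies in the mouse genome, and 13 RefSeq pseudogenes carry its name. Of these, 7 had an iNKT peak within their span and 6 had a DP peak. The iNKT peaks were 118 to 207 nt long and were enriched from 9.57-fold to 282-fold. In the authors' deposited table all 7 had a negative log2 fold change, as did 8606 of all 12542 iNKT peaks. The 7 values ran from -5.17 at Hmgb1-rs17 to -0.3 at Hmgb1-ps5, but 0 passed, and Hmgb1-ps1 was nearest with -4.41 (FDR 0.0776). The 6 DP pseudogene peaks were enriched from 2.56-fold to 11.2-fold, 3 had a negative log2 fold change, and 0 passed. Reads of near-identical copies can be placed on either, so the origin of the reads under these peaks is uncertain, and their part in the missing iNKT peak of Hmgb1 was not tested. Of 2 Anp32 pseudogenes, Anp32b-ps1 had an iNKT peak (49.9-fold enriched), which the authors' deposited table lists at -0.144 (log2) with an FDR of 0.76.

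**Figure D2:**
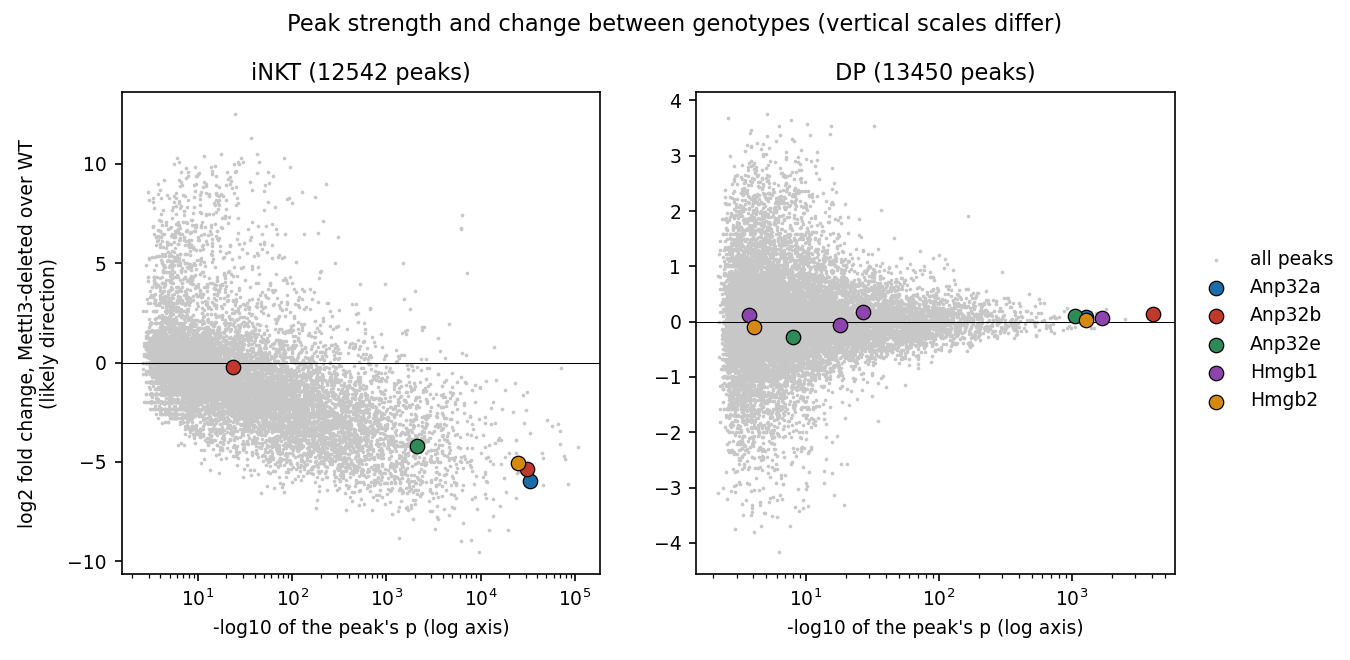
Each grey point is a peak, placed by -log10 of its peak p (horizontal, log axis) and its log2 fold change of Mettl3fl/flCD4-cre over WT cells in the likely direction (vertical), with member peaks in colour. In iNKT cells the 4 strong members lie between -5.95 and -4.18 and the weak Anp32b peak near 0, and in DP cells the 5 strong members lie between 0.031 and 0.134.

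The share of lower peaks was larger among iNKT peaks with the smallest listed p. The authors list a p of 0 for 1542 iNKT peaks, the 4 passing members among them, although by the log10 p most of the 1542 are weaker than these members, which rank 14th, 18th, 23rd and 376th. Of these 1542 peaks, 81.5% passed as lower and 2.72% as higher, and the median of the log2 values that the authors' deposited table gives them was -3.53 (quartiles -4.84 and -2.17). The share of them with a more negative value than the member was 9.92% for Anp32a, 17.3% for Anp32b, 21.9% for Hmgb2 and 36.3% for Anp32e. The pass itself was thus common among peaks with a listed p of 0. The Anp32b 5' UTR peak, which is not among the 1542, did not pass.

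In DP cells 114 peaks have a listed p of 0, and 5 of them are the strongest peaks, by peak p, of the 5 genes. These 5 were all among the 20 strongest DP peaks. Their log2 fold changes were all positive, from 0.031 to 0.134 in the authors' deposited table, while 65 of the 114 peaks had a positive value (quartiles -0.080 and 0.151). Of the 114, 2.63% passed as lower and 8.77% as higher. Of the 10 DP members, 2 had an unadjusted p under 0.05 (the late Anp32b and Anp32e peaks, both positive), where 12.7% of all DP peaks did. Changes of this size in either direction would leave the DP members near 1-fold whichever way the sign of the table runs.

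Over the members, the log2 values of the authors' deposited table had a median of -5.05 in iNKT cells (n = 5 peaks), against -0.98 over all iNKT peaks. In DP cells it was 0.079 (n = 10 peaks), against 0.0 over all DP peaks. With 1 peak per gene, the one with the smallest peak p, these medians were -5.2 and 0.091.

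**Figure D3:**
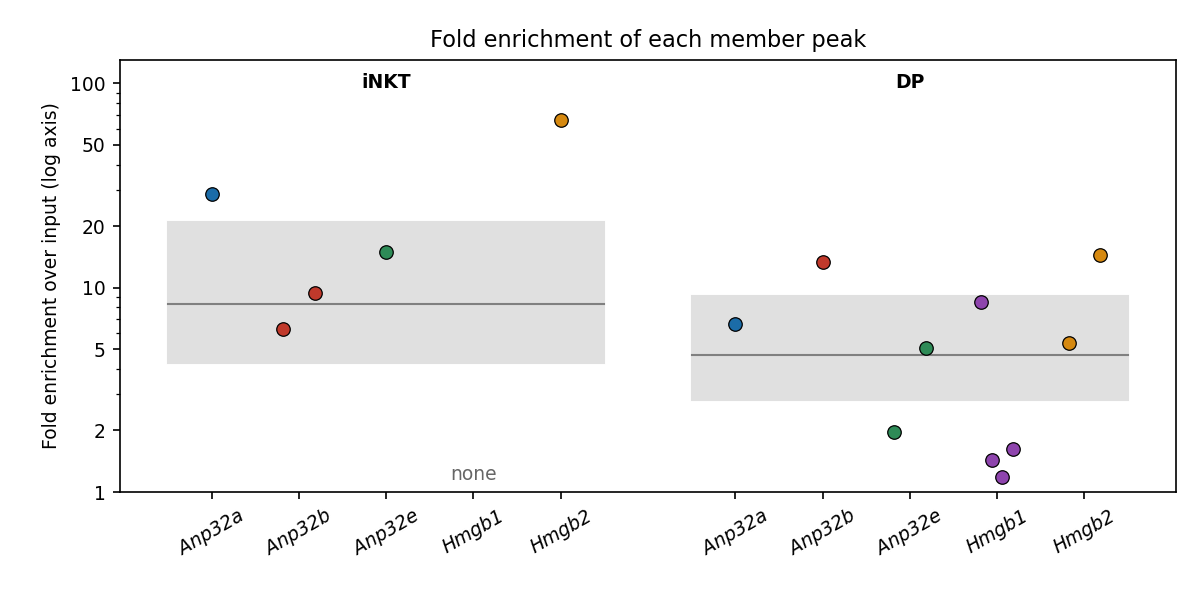
Fold enrichment of immunoprecipitate over input (log axis) for each member peak, with the grey band giving the quartiles and the line the median of all peaks of that table. Hmgb2 (66.0-fold) and Anp32a (28.6-fold) lie above the iNKT band, and the downstream Hmgb2 peak (14.5-fold) and Anp32b (13.3-fold) above the DP band. Below the DP band lie 3 Hmgb1 peaks (1.19-fold to 1.62-fold) and the early Anp32e peak.

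Enrichment over input set the members apart less than peak p did. The median was 14.9-fold in iNKT cells, against 8.32-fold over all iNKT peaks (quartiles 4.26 and 20.9). In DP cells it was 5.2-fold, against 4.7-fold over all DP peaks (quartiles 2.83 and 9.12). By the most enriched peak of each gene, the order in iNKT cells was Hmgb2, Anp32a, Anp32e and Anp32b. In DP cells it was Hmgb2 (14.5-fold, its downstream peak), Anp32b (13.3-fold), Hmgb1 (8.48-fold), Anp32a (6.65-fold) and Anp32e (5.05-fold). With 1 value per peak and no spread, neighbours in these orders cannot be told apart or separated by a test.

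Of the 5 iNKT member peaks, 4 (80.0%) overlapped a DP peak, where 42.7% of all iNKT peaks did, and the Anp32b 5' UTR peak did not. Of the 10 DP member peaks, 4 (40.0%) overlapped an iNKT peak, where 36.4% of all DP peaks did, which is near the background. The 4 pairs shared 268 to 444 nt. The overlap took 76.4% to 100% of the iNKT peak and 44.9% to 53.8% of the DP peak. All 8 splice junctions inside the iNKT peaks of Anp32a, Anp32b and Anp32e were also inside the DP peaks. The DP peaks of these pairs began further towards the 5' end. Long spliced peaks were more common among strong DP peaks in general. More than 2 blocks were found in 4 of the 5 DP members with a listed p of 0 and in 59.6% of all 114 such DP peaks. The annotation 3' UTR was given to peaks of up to 7 exonic blocks, so for these it does not say how much of the peak lies in the UTR.

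The genes most like the members were found among 3364 genes with a peak shared between the tables, by the distance over 4 values (log2 enrichment and log2 fold change in each table, each divided by its SD over those genes). The nearest were H2-Q4, a class I major histocompatibility gene, Rinl, Mapk1ip1l, Rangap1, which encodes the activator of the Ran GTPase, and Itsn2, an endocytosis scaffold gene. For these, iNKT log2 values in the authors' deposited table ran from -5.52 (H2-Q4) to -4.87 (Rangap1), and their DP values from 0.017 (Rangap1) to 0.328 (Rinl). Of the members themselves, Anp32a ranked 10th, Anp32e 30th, Hmgb2 204th and Anp32b 406th in closeness to their own median. Many other transcripts therefore lay nearer to the centre of the members than Hmgb2 and Anp32b did.

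The related genes were listed under 53 symbols, of other HMG proteins, histone chaperones, H2A.Z exchange, the SET complex, partners of ANP32 in RNA export, and receptors of HMGB1. The H2A.Z genes themselves were each listed under an old and a new symbol, so the number of distinct genes is smaller. In iNKT cells 30 of the related genes had a peak. Of these, 17 had a passing lower peak (56.7%, where 26.2% of all genes with a peak had one) and 4 a passing higher peak (where 9.64% did). In DP cells 32 had a peak, 3 with a passing lower one (9.38%, where 1.44% of all genes did) and 0 with a higher one (where 0.876% did). Of the 75 DP peaks of these genes, 14 had an unadjusted p under 0.05, 6 of them higher, where 12.7% of all DP peaks did. Over their peaks, the authors' deposited table has a median log2 value of -2.16 in iNKT cells and -0.043 in DP cells.

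Histone chaperones and other acidic chromatin proteins supplied 44 of the 67 iNKT peaks of the related genes. Of these 44 peaks, 29 passed as lower, where 19.8% of all iNKT peaks did. Of 22 genes of this class listed, 18 had a peak and 16 had a passing lower one. Over all iNKT genes with a peak, 26.2% had a passing lower one. In the authors' deposited table Ptma, which encodes the acidic protein prothymosin alpha, had -3.11 (log2) at the lowest FDR of the table. Ncl, the nucleolin gene, had -3.88 (log10 FDR of -283) and Dek, a chromatin protein gene, -4.58 (log10 FDR of -147) in the authors' deposited table. Set, which encodes the partner of ANP32A in the acetylation-blocking complex, had -4.74 (FDR 1e-31) in the authors' deposited table. Chaf1a and Nap1l1, chaperone genes of nucleosome assembly, had -7.20 and -6.27 in the authors' deposited table. Nap1l1 and Nap1l4 also had a passing higher peak. Of 12 iNKT chaperone peaks with a listed p of 0, 11 passed as lower, where 81.5% of such peaks did. Not every peak lies in the gene it is named after. The peaks named Npm3 lie in Oga, on both strands, and the peak with the smallest FDR named Atrx lies in Magt1. With peaks within the named gene only, 16 of the related genes had a passing lower iNKT peak.

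In DP cells 20 chaperone genes had a peak and 0 had a passing one. Over all DP genes with a peak, 1.44% had a passing lower and 0.876% a passing higher one, so a count of 0 among 20 is near the background. The DP 3' UTR peak of Ptma, as strong as that of Hmgb1 by peak p, stood at 0.127 (log2, FDR 0.191) in the authors' deposited table.

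Of 12 other HMG genes, 5 had an iNKT peak. Hmgn2, a nucleosome-binding protein gene, had a higher one (6.32 over 61 nt, FDR 0.00288) in the authors' deposited table. That Hmgn2 peak was weak, enriched 2.79-fold and ranked 11581st of 12542 iNKT peaks by peak p. Hmgb3, of the same family as Hmgb1 and Hmgb2, had a 5' UTR peak of -1.08 in iNKT cells (FDR 0.76) and a 3' UTR peak of -0.34 in DP cells (FDR 0.48) in the authors' deposited table. In DP cells 8 of 12 HMG genes had a peak and 2 had a passing lower one, where 1.44% of all genes with a peak had one. Hmga1, which encodes an architectural protein with AT-hooks, had -0.63 in its 5' UTR (FDR 0.000912), and Hmgn1 had -0.56 (FDR 0.00219) and -0.86 (FDR 0.0339) in the authors' deposited table. Their enrichment was 2.02-fold at Hmga1 and 1.86-fold and 2.12-fold at Hmgn1, below the lower quartile of all DP peaks (2.83-fold). The difference between these genes and Hmgb2 was not tested.

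Of 11 symbols listed for H2A.Z exchange, the process in which ANP32E acts, 4 had an iNKT peak and 0 a passing lower one. Over all iNKT genes with a peak, 26.2% had a passing lower one. Ep400, an ATPase gene of this process, had a passing higher peak (3.77, FDR 7.59e-08) in the authors' deposited table. That peak was enriched 2.49-fold and ranked 6815th by peak p. The strongest iNKT peak of Ep400, enriched 20.2-fold and ranked 871st, had -0.41 (FDR 0.357). No other iNKT peak of Ep400 passed. In DP cells 3 had a peak, and Vps72, which encodes an H2A.Z-binding subunit, had a lower one (-0.94, FDR 0.0339) in the authors' deposited table. That Vps72 peak was enriched 1.68-fold, below the lower quartile of all DP peaks (2.83-fold). Of the 3 SET complex genes listed apart from Set and the members, Trex1 alone had peaks, none passing in either table. Xpo1, which encodes the export receptor exportin, had no DP peak and a non-passing iNKT peak, given as 1.46 (log2) by the authors' deposited table. The receptor genes had no peak within the gene in either table, and the iNKT peak named Tlr4 overlaps no RefSeq gene.

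**Figure D4:**
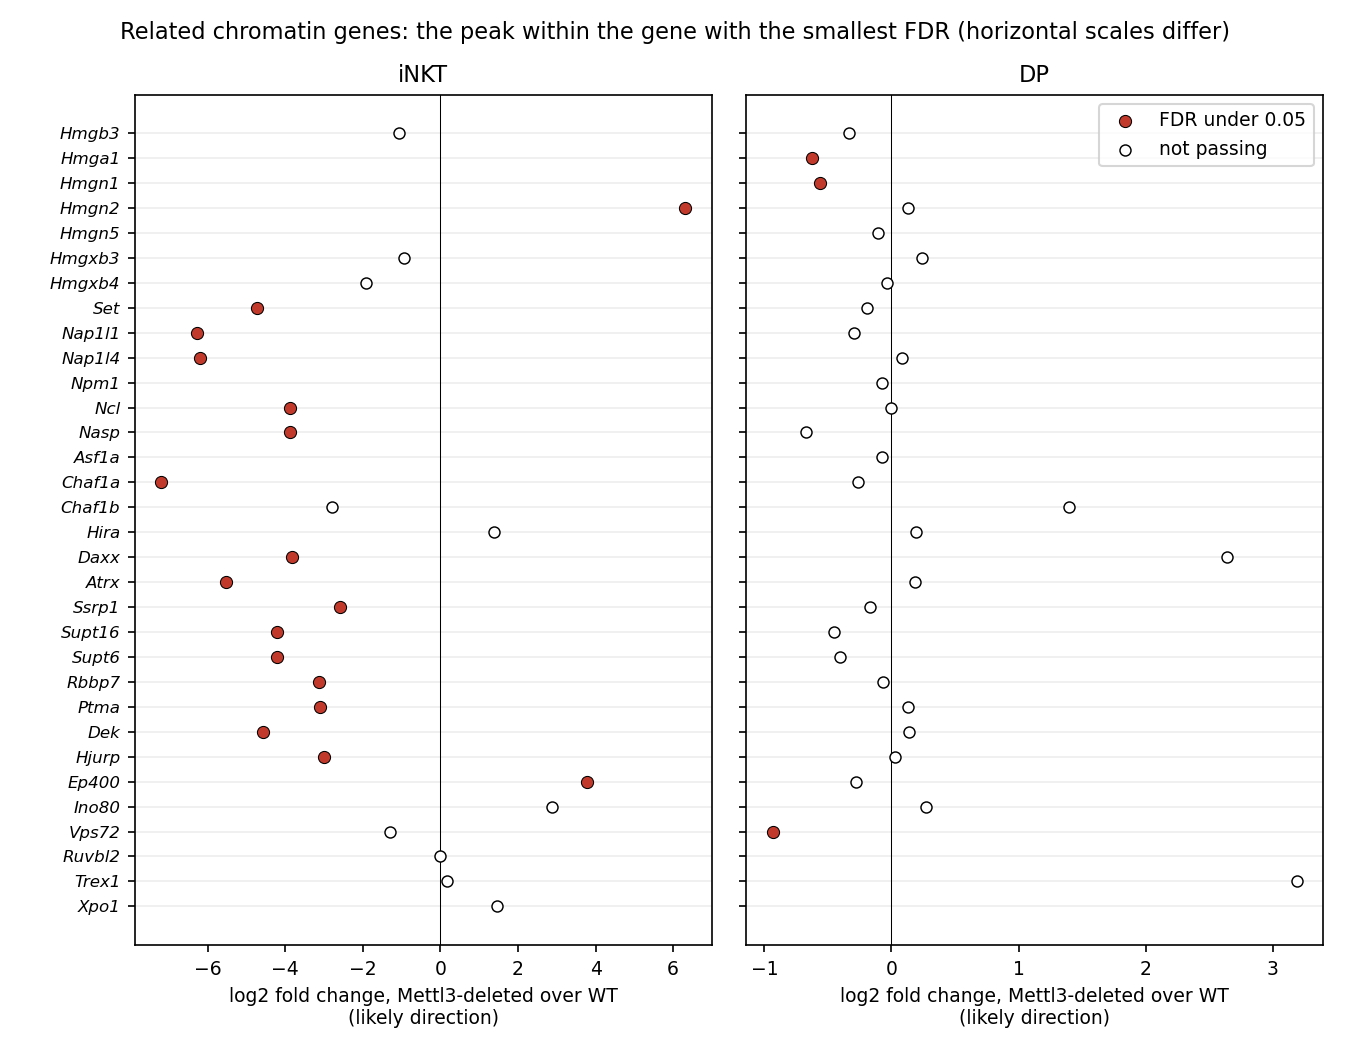
Log2 fold change of Mettl3fl/flCD4-cre over WT cells in the likely direction for related genes, each shown by the peak within the gene that has the smallest FDR, with filled points at an FDR under 0.05. In iNKT cells the filled points of the chaperone genes (Set to Hjurp, of which Chaf1b and Hira did not pass) lie below 0, and in DP cells the filled points are Hmga1, Hmgn1 and Vps72.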

How the data were processed

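The series holds 20 libraries in 8 groups. HOMER 4.9.1, STAR 2.6.0a, Trim Galore 0.6.5, RSEM 1.3.0, FastQC 0.11.5 and the mm10 build are named, without roles, per the submitters' processing notes. The peak caller is not given in the sources used here, and the column names are those of exomePeak. Per the file headers, the authors deposited for each peak a p-value, a fold enrichment (a linear ratio), a log2 fold change between genotypes, and log10 p and FDR values, treated as scores. Values over pooled libraries leave the depth and the spread between replicates unknown.

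Repeated rows were kept 1 time (24 iNKT and 5 DP rows removed), intervals were read as BED, and starts are printed from 1. Members were placed by RefSeq spans (GRCm38.p6, the mm10 assembly). Peaks were matched by at least 1 shared exonic base on a strand, and the matching was tested on simulated data. No test beyond the authors' FDR was made. The members, lists and rules were chosen with earlier results of these data known. Every member peak is described, and at most 10 related genes per table, those with the smallest FDR, have values by rule. Hmgb3, Hmgn2, Ep400 and Xpo1 were named after their values were seen. The pseudogenes and the comparison with peaks of a listed p of 0 were also added after seeing the data. Alternatives were the FDR threshold, a minimum enrichment, repeated rows, overlap and naming. Some marker and related genes are counted but not reported here by name. No genome was used, so no peak sequence is shown. Tables were computed with pandas 2.3.3 and numpy 2.4.6 under Python 3.11.15 and drawn with matplotlib 3.10.9.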

Additional observations from a re-analysis of the deposited data

How the results depend on the processing

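The counts of passing member peaks kept their value under an FDR of 0.01, a minimum enrichment of 2, repeated rows and, in iNKT cells, a 2-fold minimum change. At an FDR of 0.1 the DP count of higher member peaks was 1 (Anp32b) in place of 0. When every peak named after a member or Nans was counted, an alternative chosen after seeing the data, the iNKT median log2 fold change was -0.202 in place of -5.05, with 6 peaks outside the genes added. Over all results, 47 of 49 alternative values stayed within the set limits. Several of these could not have moved, so the tally says little. The passing iNKT peaks lie far from the FDR and 2-fold limits, and no DP peak named after a member lies outside the genes. The 4 shared peaks stayed shared at 50% of the shorter peak. No paired analysis was possible because the deposited values are pooled over replicates, and for the same reason no replicate could be left out. Depth is unknown, so a missing peak, such as that of Hmgb1 in iNKT cells, sets no limit.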

Other observations

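The 6 iNKT peaks that carry a member's symbol or Nans but lie outside the 5 genes were of another kind. In Nans itself, 4 short peaks of 91 to 150 nt, on both strands, were enriched from 2.86-fold to 9.4-fold, with log2 fold changes from 0.0 to 2.40 in the authors' deposited table. A 211 nt peak named Nans lies on the minus strand within Trim14 (chromosome 4, 46509979 to 46510189) and was enriched 128-fold, above 97.8% of iNKT peaks. Its log2 fold change was -1.84 in the authors' deposited table (FDR 0.724). The peak named Hmgb2 within Gm6012 had 0.553 in the authors' deposited table (FDR 0.76). None of the 6 passed.

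The authors' gene list for iNKT cells holds Nans, which has 2 negative peaks, 1 in Anp32b and 1 in Trim14, and none in Nans. Their DP list holds Anp32e, Hmgb1 and Hmgb2, each with a negative DP peak that did not pass, the most negative being -0.28 in Anp32e in the authors' deposited table.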
